A study of Mus musculus with 12 samples.

Results

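The TNF superfamily ligands and receptors are the 31 protein-coding genes whose symbol starts with Tnfsf or Tnfrsf followed by a number. They are all the rows with such a symbol among 21821 protein-coding rows of a gene expression table with 55322 rows. Of the 31 genes, 11 encode ligands and 20 encode receptors. RNA was measured in conventional dendritic cells (cDCs) of the mouse spleen, in 4 groups of 3 libraries each. The sample titles call the cDC1 groups L-cDC1 and M-cDC1, and the cDC2 groups L-cDC2 and M-cDC2. The titles do not spell out L and M, while the study's title speaks of cDCs of lymphoid origin. Every sample is labelled with the genotype Il7r-cre; Rosa26-lsl-tdTomato, in which Cre from the Il7r locus switches on a red reporter in cells with a history of Il7r expression. Lymphocytes share that history, and whether the reporter was used to sort any group is not stated in the labels. The growth text speaks of WT C57BL/6J animals aged 7 to 8 weeks, and no treatment is given. The replicates are not tied to separate animals in the labels, so the p-values below reflect how far these libraries vary, which could be technical variation alone.

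A ligand of this family binds its receptor as a trimer, most often from the surface of one cell to the surface of the next. The receptors carry either a death domain, which can recruit caspases, or short motifs that bind TRAF adaptors and lead to NF-kB. Decoy receptors bind a ligand without passing on a signal. In the spleen the family is best known for B cell survival (BAFF and its receptors), for lymphoid tissue architecture (lymphotoxin) and for costimulation of T cells by dendritic cells.

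The labels were checked against defining markers. The summed level of 8 cDC1 markers was 1472 to 1567 FPKM in cDC1 libraries and 150.5 to 159.6 FPKM in cDC2 libraries. The summed level of 8 cDC2 markers was 10.6 to 13.6 FPKM in cDC1 libraries and 689 to 939 FPKM in cDC2 libraries. FPKM is the read count scaled by gene length and library total, so levels can be set side by side between genes. The libraries held 15879864 to 24498235 reads. In bulk RNA, fewer cells of a type and less RNA per cell cannot be told apart.

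Promoter sequences are shown for 4 of the genes that the results turn on, because they are called members with a motif match and no annotated exon in the window. Each run is the 250 bases before the start of the gene, from RefSeq on GRCm38.p6, on the gene's own strand and 5′ to 3′. Capitals mark matches on either strand to the NF-kB-like letters (GGG, then any 5 bases, then CC) or to the AP-1 letters TGANTCA.
Tnfrsf13b, chr11:61126505-61126754, plus strand: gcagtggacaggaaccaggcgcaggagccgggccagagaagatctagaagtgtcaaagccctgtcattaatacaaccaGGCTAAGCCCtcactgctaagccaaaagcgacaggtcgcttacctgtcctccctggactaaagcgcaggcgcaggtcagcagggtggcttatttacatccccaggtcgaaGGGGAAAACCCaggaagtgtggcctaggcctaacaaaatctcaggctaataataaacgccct
Tnfrsf13c, chr15:82224381-82224630, minus strand: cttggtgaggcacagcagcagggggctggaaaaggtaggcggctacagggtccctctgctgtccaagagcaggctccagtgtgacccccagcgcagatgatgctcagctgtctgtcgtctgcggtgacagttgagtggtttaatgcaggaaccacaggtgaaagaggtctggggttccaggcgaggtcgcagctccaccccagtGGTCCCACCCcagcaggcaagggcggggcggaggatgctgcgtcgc
Tnfrsf1b, chr4:145246871-145247120, minus strand: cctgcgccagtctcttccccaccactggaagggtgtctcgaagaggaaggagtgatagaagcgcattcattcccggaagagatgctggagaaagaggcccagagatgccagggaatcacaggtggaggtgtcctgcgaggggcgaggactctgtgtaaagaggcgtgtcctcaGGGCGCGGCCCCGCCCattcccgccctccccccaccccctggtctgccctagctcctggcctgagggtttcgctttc
Tnfsf14, chr17:57194182-57194431, minus strand: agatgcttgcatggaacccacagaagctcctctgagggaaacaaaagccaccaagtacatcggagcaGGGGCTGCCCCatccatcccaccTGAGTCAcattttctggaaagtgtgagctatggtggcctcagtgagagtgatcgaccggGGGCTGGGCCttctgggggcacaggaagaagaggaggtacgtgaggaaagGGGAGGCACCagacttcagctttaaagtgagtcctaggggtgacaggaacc

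Of the 31 members, 24 had a promoter entry, and 14 of these were among the 16 genes expressed highly enough to be tested. The NF-kB-like letters were found in 10 of the 14, and they occur in 45.8% of 32851 RefSeq promoters of the same length. Overlapping matches and matches on both strands were merged in the capitals, and the letters read nearly the same on either strand. Tnfrsf13b held such letters from positions -172, -62 and -61 relative to its start, and Tnfrsf13c from -46. Tnfrsf1b held them from -77, -76 and -71, and Tnfsf14 from -183, -182, -101 and -51. The AP-1 letters were found in 2 of the 14, Tnfsf14 and Tnfrsf9, against 6.75% of all promoters. A gene counted if any of its promoter entries matched, whereas the shares are over single entries. Tnfrsf9 has another entry, which held neither the AP-1 nor the NF-kB-like letters. The composite ETS and IRF letters (GGAA, then any 2 bases, then GAAA) were found in 0 of the 14, against 2.301% of all promoters. A match describes the letters and is neither a bound site nor a cause.

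About as many members were measurable as not. A gene was tested where it reached 1 FPKM in at least 3 of the 12 libraries, which kept 16 members, of which 3 are ligands and 13 are receptors. The 15 others never exceeded 1.81 FPKM, the level of Tnfrsf26 in L-cDC1 replicate 1. Tnfrsf17 (BCMA, a BAFF and APRIL receptor of plasma cells) and Tnfrsf19 were listed at 0 in all 12 libraries. For these, 3 reads would have been worth at most 0.232 FPKM on Tnfrsf17 and 0.0399 FPKM on Tnfrsf19, a floor that covers counting error only.

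**Figure D1:**
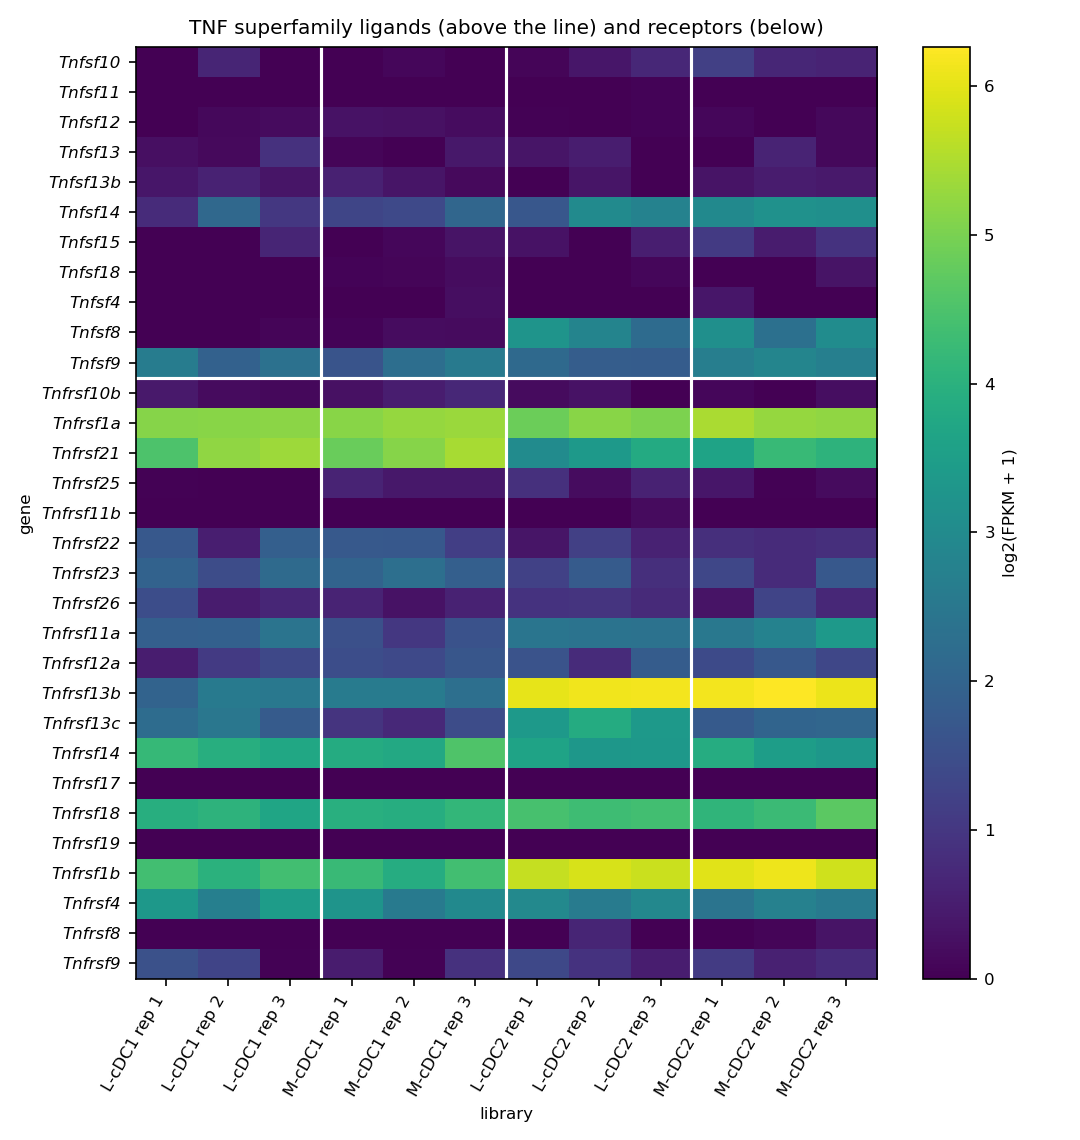
Each row is 1 of the 31 genes and each column 1 of the 12 libraries, coloured by log2(FPKM + 1). Rows above the white horizontal line are the 11 ligands. Tnfrsf13b and Tnfrsf1b stand out in the cDC2 columns, and Tnfrsf21 is brighter in the cDC1 columns.

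The ligands were the sparser side of the family. The highest library of each of the 8 untested ligands was 1.28 FPKM for Tnfsf10 (TRAIL, a death ligand), 1.09 FPKM for Tnfsf15 (TL1A), 0.862 FPKM for Tnfsf13 (APRIL) and 0.506 FPKM for Tnfsf13b (BAFF). It was 0.310 FPKM for Tnfsf4 (OX40 ligand), 0.2498 FPKM for Tnfsf18 (GITR ligand), 0.235 FPKM for Tnfsf12 (TWEAK) and 0.0493 FPKM for Tnfsf11 (RANKL). Thus the ligands of OX40, GITR and RANK were each below 1 FPKM in every library while those receptors were measurable. Tnfsf12 and Tnfsf13 share 48.3% and 60.05% of their exon bases with other annotated genes, including a readthrough gene on the same strand, so their reads could be split or doubled by the counting.

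Tnfsf8 (CD30 ligand; chromosome 4, 63749545 to 63779584, minus strand, as the deposited table gives it) was all but restricted to cDC2 libraries. Its level was 0, 0 and 0.0686 FPKM in L-cDC1 and 0.0468, 0.162 and 0.132 FPKM in M-cDC1. It was 8.47, 6.14 and 3.53 FPKM in L-cDC2 and 7.66, 4.003 and 7.25 FPKM in M-cDC2. In reads over 3 libraries these were 5 in L-cDC1, 26 in M-cDC1, 1521 in L-cDC2 and 1491 in M-cDC2, and no cDC1 library came near a cDC2 library. Its receptor gene Tnfrsf8 (CD30) was at 0 in all cDC1 libraries. Tnfrsf8 was highest in L-cDC2 replicate 2, at 0.557 FPKM, and had 0.0546 and 0.254 FPKM in M-cDC2 replicates 2 and 3.

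Tnfsf14 (LIGHT, a ligand of HVEM and of the lymphotoxin beta receptor; chromosome 17, 57496492 to 57501177, minus strand) was lower in cDC1 than in cDC2 libraries. It stood at 0.716, 3.34 and 1.02 FPKM in L-cDC1 and at 1.47, 1.61 and 3.21 FPKM in M-cDC1. It stood at 2.27, 7.03 and 5.88 FPKM in L-cDC2 and at 6.90, 8.01 and 7.66 FPKM in M-cDC2. The M groups did not overlap, whereas L-cDC1 replicate 2 lay above L-cDC2 replicate 1. Tnfsf9 (the CD137 ligand, a T cell costimulator) averaged 4.04 ± 1.16 FPKM in L-cDC1, 3.57 ± 1.38 FPKM in M-cDC1, 2.83 ± 0.478 FPKM in L-cDC2 and 5.70 ± 0.388 FPKM in M-cDC2 (SD, n = 3).

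Among the 4 death domain receptors, 2 were tested. Tnfrsf1a (TNFR1, the receptor of soluble TNF) was high and even, averaging 34.5 ± 0.358 FPKM in L-cDC1, 37.1 ± 2.22 FPKM in M-cDC1, 31.3 ± 3.26 FPKM in L-cDC2 and 38.8 ± 3.62 FPKM in M-cDC2 (SD, n = 3). Tnfrsf21 (DR6; chromosome 17, 43327446 to 43400080, plus strand) had 21.7, 36.3 and 39.6 FPKM in L-cDC1 and 27.7, 33.6 and 42.3 FPKM in M-cDC1. It had 7.07, 9.36 and 13.1 FPKM in L-cDC2 and 11.4, 17.7 and 15.6 FPKM in M-cDC2. Every cDC1 library was above every cDC2 library, the opposite order to that of the other members called between the subsets. Tnfrsf10b (the mouse TRAIL receptor) and Tnfrsf25 (DR3, the receptor of TL1A) stayed below 1 FPKM, with maxima of 0.610 and 0.811 FPKM.

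Of the BAFF and APRIL receptors, TACI and BAFF-R were measurable. Tnfrsf13b (TACI, which binds BAFF and APRIL; chromosome 11, 61017581 to 61040198, plus strand) had 2.98, 4.85 and 4.64 FPKM in L-cDC1 and 5.09, 5.11 and 3.902 FPKM in M-cDC1. It had 63.8, 69.3 and 69.7 FPKM in L-cDC2 and 70.0, 75.8 and 66.4 FPKM in M-cDC2. At these levels it was, per length, the most abundant member in cDC2 libraries of either kind. Tnfrsf13c (BAFF-R, which binds BAFF and keeps B cells alive; chromosome 15, 82105944 to 82108570, minus strand) had 3.67, 4.54 and 2.47 FPKM in L-cDC1 and 0.913, 0.656 and 1.76 FPKM in M-cDC1. It had 9.37, 13.4 and 9.31 FPKM in L-cDC2 and 2.39, 3.04 and 3.17 FPKM in M-cDC2. Its L libraries were above its M libraries in both subsets, and of the 4 groups only L-cDC1 and M-cDC2 overlapped.

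Tnfrsf1b (TNFR2, which binds membrane TNF; chromosome 4, 144940033 to 144973440, minus strand) had 19.5, 15.01 and 19.8 FPKM in L-cDC1 and 18.1, 13.6 and 19.8 FPKM in M-cDC1. It had 51.0, 58.0 and 53.2 FPKM in L-cDC2 and 62.4, 67.8 and 54.8 FPKM in M-cDC2. Its L and M libraries overlapped within each subset, and its cDC1 and cDC2 libraries did not overlap. The other TNF receptor gene, Tnfrsf1a, had group means of 31.3 to 38.8 FPKM.

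Tnfrsf11a (RANK, the receptor of RANKL; chromosome 1, 105708443 to 105775709, plus strand) had 2.703, 2.76 and 4.28 FPKM in L-cDC1 and 1.88, 1.03 and 1.97 FPKM in M-cDC1. It had 4.37, 4.21 and 4.17 FPKM in L-cDC2 and 4.67, 5.88 and 9.52 FPKM in M-cDC2. By its mean M-cDC1 was the lowest group and M-cDC2 the highest, with both L groups between them. Tnfrsf18 (GITR; chromosome 4, 156110621 to 156113352, plus strand) had 14.2, 15.4 and 11.9 FPKM in L-cDC1 and 14.4, 13.9 and 16.7 FPKM in M-cDC1. It had 20.7, 18.9 and 19.8 FPKM in L-cDC2 and 16.2, 18.3 and 24.6 FPKM in M-cDC2. Of its exon bases 27.2% also belong to a long non-coding RNA on the other strand, and the library kits do not mark strand.

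**Figure D2:**
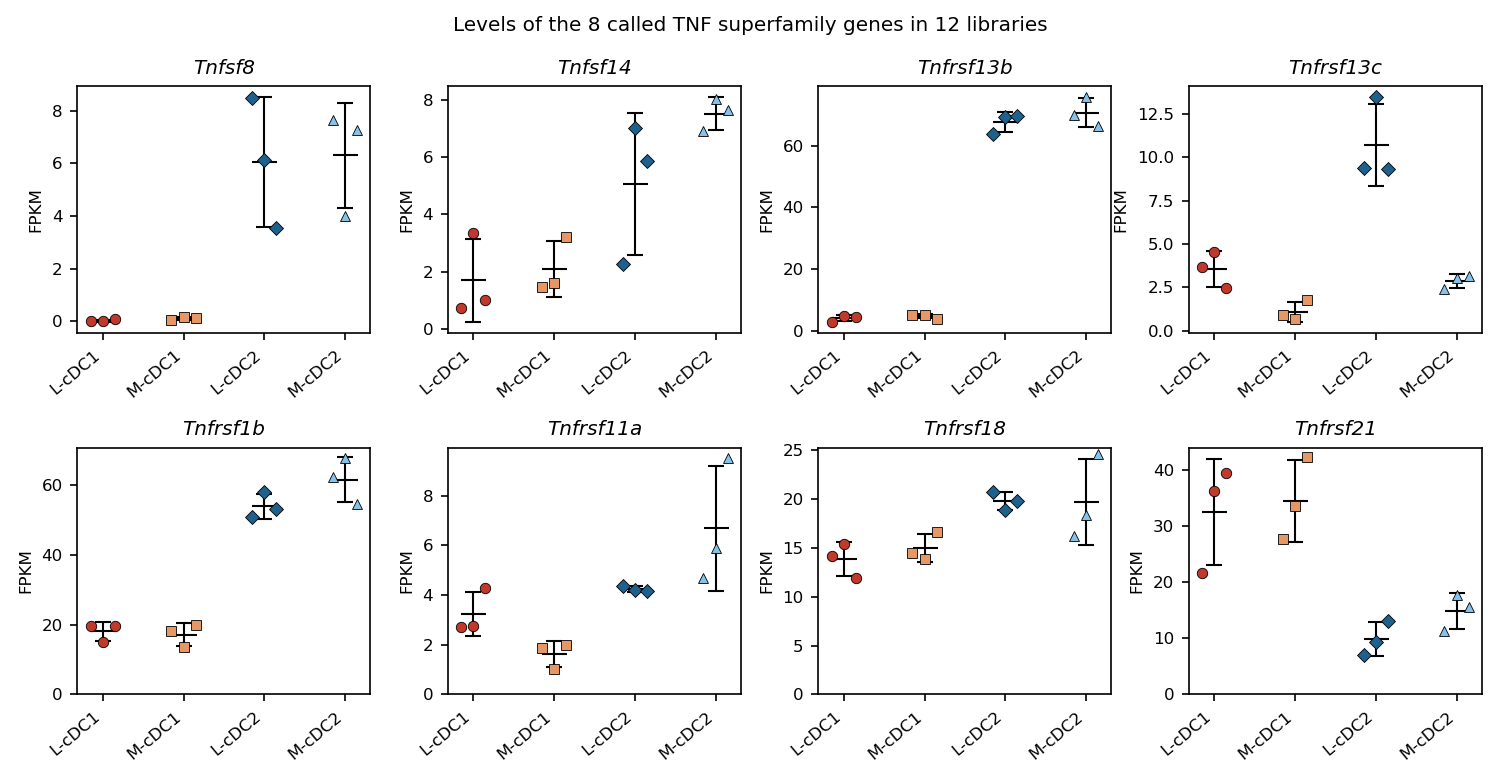
Points are single libraries in FPKM for the 8 genes called in at least 1 comparison, and bars are the mean and SD of 3 libraries in each of the 4 groups. For Tnfrsf13b the cDC1 libraries sit at 2.98 to 5.11 FPKM and the cDC2 libraries at 63.8 to 75.8 FPKM.

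No other TRAF-binding receptor was called in any comparison. Tnfrsf14 (HVEM, a receptor of LIGHT) averaged 14.6 ± 2.57 FPKM in L-cDC1, 16.2 ± 5.31 FPKM in M-cDC1, 9.85 ± 1.43 FPKM in L-cDC2 and 10.98 ± 2.45 FPKM in M-cDC2 (SD, n = 3). Tnfrsf4 (OX40) averaged 8.24 ± 2.37 FPKM in L-cDC1, 6.75 ± 1.78 FPKM in M-cDC1, 6.11 ± 0.925 FPKM in L-cDC2 and 5.01 ± 0.722 FPKM in M-cDC2. Tnfrsf9 (CD137) and Tnfrsf12a (Fn14, the receptor of TWEAK) were near the filter, at 0.0192 to 1.92 FPKM and 0.411 to 2.54 FPKM over the 12 libraries. The decoy-type genes Tnfrsf22 and Tnfrsf23, which bind TRAIL in the mouse, averaged 1.82 and 2.71 FPKM in L-cDC1, 1.96 and 3.20 FPKM in M-cDC1, 0.688 and 1.53 FPKM in L-cDC2 and 0.764 and 1.52 FPKM in M-cDC2. These lie side by side on chromosome 7 with Tnfrsf26 and are related copies, so reads could be split between them. Tnfrsf11b (osteoprotegerin, the decoy of RANKL) reached 0.137 FPKM in 1 library.

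The first comparison sets L against M within cDC1. No tested member was called between L-cDC1 and M-cDC1 at an adjusted p under 0.05 (limma on log2(FPKM + 1), Benjamini-Hochberg over 12434 genes), where 0.394% of all genes were called. At an unadjusted limma p under 0.05 there were 2 members, beside 1278 of all 12434 genes. A count model on recovered reads (limma-voom) called 0 members. Tnfrsf13c averaged 3.56 ± 1.04 FPKM in L-cDC1 and 1.11 ± 0.576 FPKM in M-cDC1 (SD, n = 3), a difference of 1.12 in log2(FPKM + 1) (SE 0.234) with a limma adjusted p of 0.0629. This difference was called in 4 of 22 alternative settings, with adjusted p of 0.0399 to 0.379. Tnfrsf11a averaged 3.25 ± 0.891 FPKM in L-cDC1 and 1.63 ± 0.520 FPKM in M-cDC1, with a difference of 0.69 in log2(FPKM + 1) (SE 0.239, limma adjusted p = 0.315). Tnfrsf12a averaged 1.02 ± 0.570 FPKM in L-cDC1 and 1.87 ± 0.292 FPKM in M-cDC1 (limma adjusted p = 0.553).

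In cDC2, BAFF-R was the 1 member of 16 called between L and M, where 1.83% of all genes were called. At an unadjusted limma p under 0.05 there were 4 members, beside 1267 of all 12434 genes. Tnfrsf13c averaged 10.7 ± 2.37 FPKM in L-cDC2 and 2.87 ± 0.419 FPKM in M-cDC2 (SD, n = 3), a 3.73-fold higher mean. The log2 difference was 1.58 (SE 0.234) with a limma adjusted p of 0.00207, and it was called in all 22 alternatives, at 0.00142 to 0.0171. Tnfsf9 (log2 difference -0.81, limma adjusted p = 0.129), Tnfrsf1a (-0.30, 0.278) and Tnfrsf11a (-0.50, 0.501) had lower means in L-cDC2 than in M-cDC2 and did not pass the test. Tnfrsf21 had a log2 difference of -0.57 and did not pass either (limma adjusted p = 0.464).

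**Figure D3:**
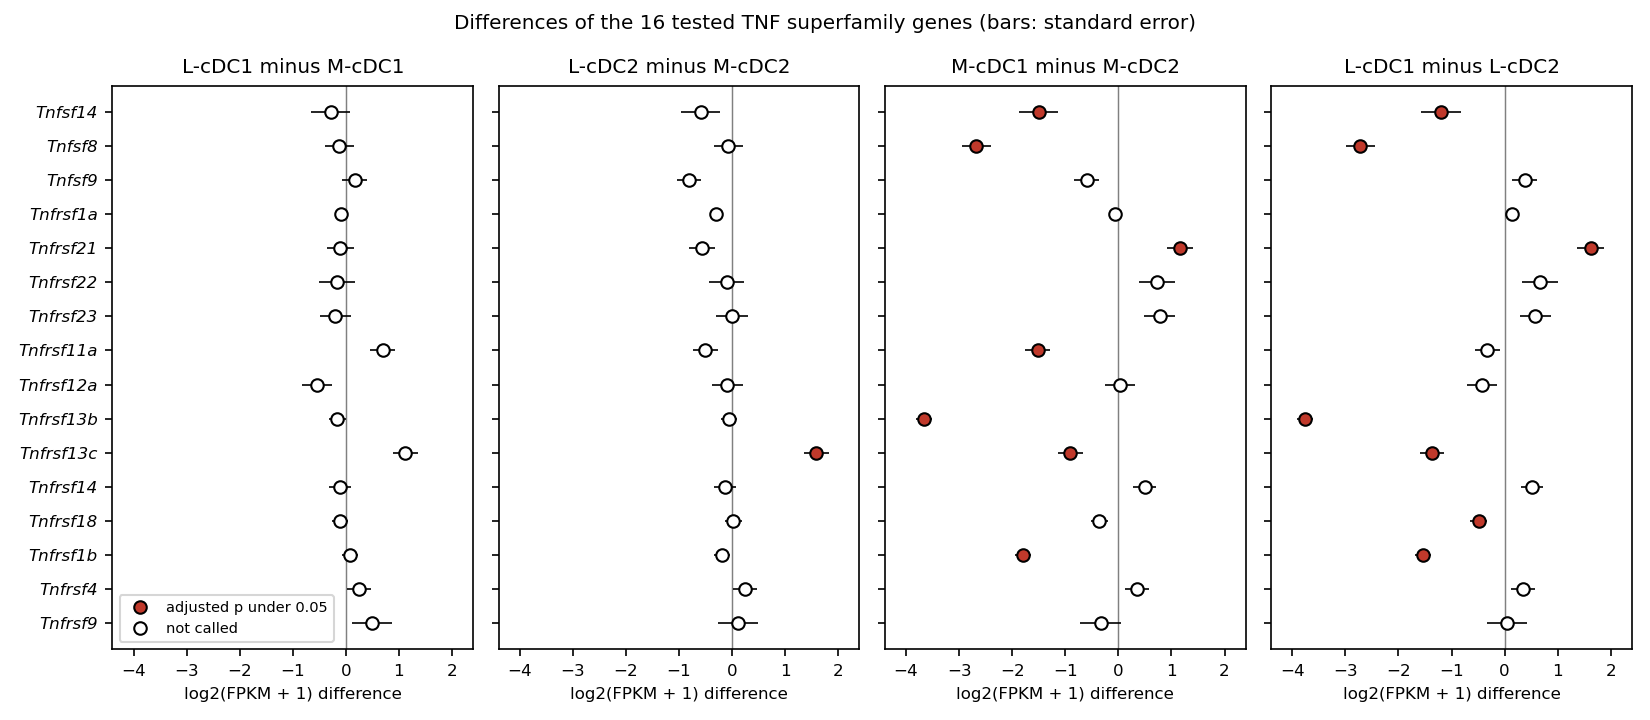
Points are log2(FPKM + 1) differences of the 16 tested genes in each of 4 comparisons, bars are standard errors, and filled points are called at an adjusted p under 0.05. The L minus M panels hold 0 filled points in cDC1 and 1 in cDC2 (Tnfrsf13c, 1.58), and the cDC1 minus cDC2 panels hold 7 each.

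Markers of B cells moved with Tnfrsf13c. Of 14 tested markers of a list of 16, 9 were called higher in L-cDC1 than in M-cDC1 and 10 higher in L-cDC2 than in M-cDC2, with 0 lower in either. The summed level of the list was 614 to 992 FPKM in L-cDC1, 313 to 360 FPKM in M-cDC1, 1009 to 3430 FPKM in L-cDC2 and 453 to 500 FPKM in M-cDC2. In M libraries most of this sum was Ighm, at 293 to 343 FPKM in M-cDC1 and 312 to 332 FPKM in M-cDC2. Igkc, an immunoglobulin light chain, was 137 to 404 FPKM in L-cDC1 and 1.37 to 2.93 FPKM in M-cDC1, and 270 to 1977 FPKM in L-cDC2 and 2.07 to 2.23 FPKM in M-cDC2. Cd79a, part of the B cell receptor, was 11.03 to 23.6 FPKM in L-cDC1 and 0.153 to 0.406 FPKM in M-cDC1, and 15.2 to 97.7 FPKM in L-cDC2 and 0.216 to 0.850 FPKM in M-cDC2. Pax5 was at 0 in all 6 M libraries. The part of these markers in the Tnfrsf13c difference was not tested.

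In 3 of the 4 groups the library with the most Cd79a, 1 of the 16 listed markers, also had the most Tnfrsf13c. These were M-cDC1 replicate 3 (0.406 FPKM of Cd79a and 1.76 FPKM of Tnfrsf13c), L-cDC2 replicate 2 and M-cDC2 replicate 3 (0.850 FPKM and 3.17 FPKM). In the remaining group, L-cDC1 replicate 3 had the most Cd79a (23.6 FPKM) and the least Tnfrsf13c (2.47 FPKM). By the summed level of the list, the highest library matched in M-cDC1 and L-cDC2 only. In M-cDC2 that sum was 500, 459 and 453 FPKM in replicates 1 to 3, where Tnfrsf13c was 2.39, 3.04 and 3.17 FPKM. With 3 libraries per group such matches can arise by chance, and they were not tested. Cd79a was at most 0.850 FPKM in M libraries, where 3 reads on 1 kb are worth up to 0.189 FPKM. L-cDC2 replicate 2 had the most of both among the 12 libraries, 97.7 FPKM of Cd79a and 13.4 FPKM of Tnfrsf13c, and without it the log2 difference of Tnfrsf13c between L-cDC2 and M-cDC2 was 1.42 with a limma adjusted p of 0.0130. M-cDC2 held 2.39 to 3.17 FPKM of Tnfrsf13c where Cd79a was 0.216 to 0.850 FPKM. Tnfrsf13b, also a gene of B cells, was far higher in cDC2, at 63.8 to 75.8 FPKM. It did not pass between L and M in either subset, with log2 differences of -0.16 in cDC1 (limma adjusted p = 0.805) and -0.06 in cDC2 (0.941). A part of B cells in its values was not tested.

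**Figure D4:**
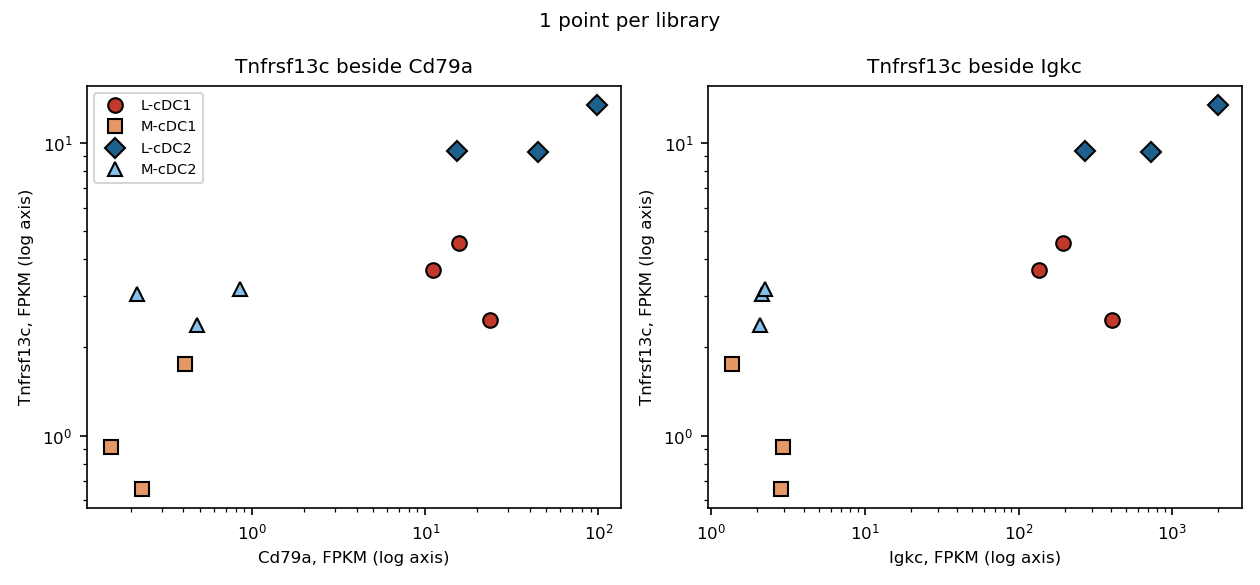
Each point is 1 library, with Tnfrsf13c in FPKM on the vertical axis and Cd79a (left) or Igkc (right) in FPKM on the horizontal axis, all on log scales. L libraries lie to the right of M libraries in both panels, at 11.03 FPKM of Cd79a or more.

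Markers of T and NK cells also differed between L and M. Of 8 tested, 3 were called higher in L-cDC1 and 6 in L-cDC2. The summed level of that list of 12 was 11.9 to 21.0 FPKM in L-cDC1, 0.504 to 1.12 FPKM in M-cDC1, 41.0 to 108 FPKM in L-cDC2 and 2.08 to 2.73 FPKM in M-cDC2, and Cd3g, part of the T cell receptor complex, was at 0 in all 6 M libraries. Tnfrsf18 and Tnfrsf4, which T cells also express, did not pass between L and M in either subset, with limma adjusted p of 0.789 to 0.979. A part of T cells in their values was not tested.

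Whether the L minus M difference itself differed between cDC1 and cDC2 was tested as an interaction. No member was called (limma), where 0.298% of all genes were called, and limma-voom called 0 members. At an unadjusted limma p under 0.05 there were 2 members, beside 1061 of all 12434 genes. Tnfrsf11a came nearest, with an interaction of 1.196 on the log2 scale (SE 0.337, limma adjusted p = 0.263). Its L mean lay above its M mean in cDC1 and below it in cDC2. Over the alternatives its limma adjusted p ran from 0.147 to 0.529. For Tnfsf9 the interaction was 0.98 (SE 0.330, limma adjusted p = 0.394). For Tnfrsf13c it was -0.46 (SE 0.331, limma adjusted p = 0.781).

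Between the subsets, 7 of 16 members (43.75%) were called in the M groups and 7 in the L groups, near the 38.1% and 39.5% of all genes. In each comparison 1 member was higher in cDC1 and 6 were lower, and 6 members were called in both, namely Tnfsf8, Tnfsf14, Tnfrsf13b, Tnfrsf13c, Tnfrsf1b and Tnfrsf21. Of all genes, 12.7% were called higher and 25.4% lower in M-cDC1, and 12.9% higher and 26.6% lower in L-cDC1. The median log2 difference of all genes was -0.18 in M and -0.19 in L, and the members' medians were -0.35 and -0.14, so each value here is read against that shift. Dividing by median-of-ratios size factors gave 3 members higher and 6 lower in M and 3 higher and 5 lower in L, and moved the medians of all genes to -0.03 and -0.04. Quantile normalization gave 5 higher and 5 lower in M and 6 higher and 4 lower in L, where the members' median became 0.10. The calls over all genes moved likewise in M, with 1573 higher and 3163 lower as deposited, 2169 and 2271 after median-of-ratios scaling, and 2253 and 1967 after quantile normalization. In L they were 1605 higher and 3308 lower as deposited, 2250 and 2371, and 2330 and 2098.

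Among the members, TACI had the largest difference in log2(FPKM + 1) in both subset comparisons, while by fold of means Tnfsf8 had a larger one. Tnfrsf13b averaged 4.70 ± 0.691 FPKM in M-cDC1 and 70.7 ± 4.72 FPKM in M-cDC2 (SD, n = 3), 15.05-fold lower in cDC1, with a difference of -3.66 in log2(FPKM + 1) (SE 0.151, limma adjusted p = 2.87e-10). It averaged 4.16 ± 1.02 FPKM in L-cDC1 and 67.6 ± 3.28 FPKM in L-cDC2, 16.3-fold lower, with a difference of -3.75 in log2(FPKM + 1) (SE 0.151, limma adjusted p = 2.23e-10). BAFF-R went the same way, 2.59-fold lower in M-cDC1 than in M-cDC2 (log2 difference -0.90, SE 0.234, limma adjusted p = 0.00771) and 3.01-fold lower in L-cDC1 than in L-cDC2 (-1.37, SE 0.234, 0.000378). The M call of Tnfrsf13c was lost under quantile normalization, at an adjusted p of 0.0503. B cell markers also differed between the subsets, with 10 of 14 called lower in L-cDC1 than in L-cDC2, and 6 lower and 2 higher in M-cDC1 than in M-cDC2, and their part in these values was not tested.

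The 2 ligands called were lower in cDC1. Tnfsf8 averaged 0.113 FPKM in M-cDC1 and 6.30 FPKM in M-cDC2, 55.6-fold lower in cDC1, with a difference of -2.67 in log2(FPKM + 1) (SE 0.272, limma adjusted p = 3.1e-06) that the pseudocount of 1 holds down. In L the means were 0.0229 FPKM in L-cDC1 and 6.04 FPKM in L-cDC2, 264-fold lower in cDC1 on 5 reads, with a difference of -2.72 in log2(FPKM + 1) (SE 0.272, limma adjusted p = 2.61e-06). Tnfsf14 averaged 2.09 ± 0.965 FPKM in M-cDC1 and 7.52 ± 0.570 FPKM in M-cDC2 (SD, n = 3), a difference of -1.50 in log2(FPKM + 1) (SE 0.370, limma adjusted p = 0.00567). It averaged 1.69 ± 1.44 FPKM in L-cDC1 and 5.06 ± 2.48 FPKM in L-cDC2, a difference of -1.196 in log2(FPKM + 1) (SE 0.370, limma adjusted p = 0.0201). The L call of Tnfsf14 ended without L-cDC1 replicate 1 or 3 (adjusted p 0.0817 and 0.0696), without L-cDC2 replicate 2 or 3 (0.0891 and 0.0714), with no filter on low values (0.0865), under quantile normalization (0.0630) and with only the groups compared in the fit (0.0611).

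TNFR2 averaged 17.2 ± 3.19 FPKM in M-cDC1 and 61.7 ± 6.51 FPKM in M-cDC2 (SD, n = 3), 3.59-fold lower in cDC1, a difference of -1.80 in log2(FPKM + 1) (SE 0.149, limma adjusted p = 3.91e-07). It averaged 18.1 ± 2.68 FPKM in L-cDC1 and 54.0 ± 3.58 FPKM in L-cDC2, 2.99-fold lower in cDC1, a difference of -1.54 in log2(FPKM + 1) (SE 0.149, limma adjusted p = 1.91e-06). TNFR1 did not pass in either, with log2 differences of -0.06 in M (limma adjusted p = 0.688) and 0.14 in L (0.328). DR6 went the other way. Tnfrsf21 was 2.32-fold higher in M-cDC1 than in M-cDC2 (log2 difference 1.16, SE 0.253, limma adjusted p = 0.00246) and 3.30-fold higher in L-cDC1 than in L-cDC2 (1.62, SE 0.253, 0.000172). Markers of monocytes and macrophages, which also use TNFR2, were lower in cDC1 for 5 of 6 tested in M, where 1 was higher, and for 4 of 6 in L. Their summed level was 703 to 736 FPKM in M-cDC1 and 1444 to 1664 FPKM in M-cDC2, and 577 to 642 FPKM in L-cDC1 and 692 to 854 FPKM in L-cDC2, and their part was not tested. Between L-cDC2 and M-cDC2, Tnfrsf1b had means of 54.0 and 61.7 FPKM and did not pass (log2 difference -0.18, limma adjusted p = 0.760). In that comparison 3 of the 6 monocyte and macrophage markers were called lower and 0 higher. Of these markers, Lyz2 was 182 to 351 FPKM in L-cDC2 and 804 to 1021 FPKM in M-cDC2. Their part in the Tnfrsf1b values was not tested there either.

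RANK and GITR were each called in 1 of the 2 subset comparisons. Tnfrsf11a was 4.11-fold lower in M-cDC1 than in M-cDC2 (log2 difference -1.52, SE 0.239, limma adjusted p = 0.000184), while L-cDC1 and L-cDC2 gave -0.32 (adjusted p = 0.303). Tnfrsf18 averaged 13.9 ± 1.78 FPKM in L-cDC1 and 19.8 ± 0.930 FPKM in L-cDC2 (SD, n = 3), a difference of -0.49 in log2(FPKM + 1) (SE 0.153, limma adjusted p = 0.0204), while M-cDC1 and M-cDC2 gave -0.36 (0.0831). The interaction above did not pass for either gene (limma adjusted p = 0.263 for Tnfrsf11a and 0.924 for Tnfrsf18), so neither is shown to differ between L and M. The L call of Tnfrsf18 ended without L-cDC1 replicate 3 (adjusted p 0.0807), without L-cDC2 replicate 1 (0.0613), after median-of-ratios scaling (0.127), after quantile normalization (0.105) and with limma-voom (0.0560).

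Tnfrsf14, Tnfrsf22 and Tnfrsf23 had log2 differences above 0 in both subset comparisons without passing. For Tnfrsf14 they were 0.50 in M (limma adjusted p = 0.0820) and 0.52 in L (0.0675), for Tnfrsf22 0.72 (0.109) and 0.67 (0.133), and for Tnfrsf23 0.78 (0.0521) and 0.58 (0.135). This depended on the setting, since Tnfrsf23 was called in M in 8 of 21 alternatives, among them limma-voom, median-of-ratios scaling and quantile normalization. Tnfrsf23 was also called in L in 2 of 21, Tnfrsf22 in 3 of 21 in M and 2 of 21 in L, and Tnfrsf14 in 3 of 22 in M and 4 of 22 in L. Tnfrsf4 gave 0.35 in both (0.243 in M, 0.228 in L), Tnfrsf9 -0.33 and 0.04 (0.527 and 0.950), Tnfrsf12a 0.03 and -0.43 (0.956 and 0.252), and Tnfsf9 -0.60 and 0.38 (0.0585 and 0.220).

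Family genes with other symbols were followed as a list of 15, of which 9 were tested. Between the subsets, the M groups and the L groups each gave 1 gene higher in cDC1 and 6 genes lower, where 12.7% of all genes were higher and 25.4% lower in M, and 12.9% and 26.6% in L. After median-of-ratios scaling the L count was 2 higher and 5 lower, and after quantile normalization 2 higher and 4 lower. Ltb, which encodes the membrane anchor of lymphotoxin, was 25.2 to 36.1 FPKM in L-cDC1, 16.1 to 24.1 FPKM in M-cDC1, 425 to 461 FPKM in L-cDC2 and 342 to 478 FPKM in M-cDC2. Its log2 differences were -4.32 in M (limma adjusted p = 1.02e-10) and -3.82 in L (3.51e-10), wider on this scale than that of any of the 16 tested members. Relt, an orphan receptor, was lower in cDC1 (-2.50 in M, -2.63 in L), as was Fasl, the ligand of Fas (-1.90 and -1.33). Fas itself was higher in cDC1 (1.11 and 1.03), a call lost in 3 of 22 alternatives in M and 6 in L. Lta was lower in M (-1.71) and in L (-0.94, limma adjusted p = 0.0438, lost in 13 of 22 alternatives). Tnf was lower in L (-1.09) and in M (-0.66, limma adjusted p = 0.0399, lost in 8 of 22). Cd40 gave -0.54 in M, and Cd27 gave -0.68 in L, the last lost in 4 of 22 alternatives. No gene of this list was called between L and M (limma and limma-voom), with 3 of 9 in cDC1 and 3 in cDC2 at an unadjusted limma p under 0.05. Of all 12434 genes, 1278 in cDC1 and 1267 in cDC2 had such a p.

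A list of downstream genes was counted in the same way. Of 43 tested genes of TNF receptor signalling, 26 (60.5%) passed in M-cDC1 against M-cDC2, of which 3 were higher and 23 lower, beside 38.1% of all genes. In L-cDC1 against L-cDC2 also 26 passed, of which 4 were higher and 22 lower, beside 39.5% of all genes. Of all genes, 12.7% were called higher and 25.4% lower in M, and 12.9% and 26.6% in L. After median-of-ratios scaling the list gave 4 higher and 20 lower in M, and 5 and 17 in L. Its medians were then -0.42 and -0.34. Quantile normalization gave 4 higher and 22 lower in M, and 5 and 18 in L. No enrichment of the list was tested. The median log2 difference of the list was -0.61 in M and -0.51 in L, beside -0.18 and -0.19 for all genes, and 23 genes were called in both. Relb, the transcription factor of the alternative NF-kB pathway, averaged 33.6 ± 2.104 FPKM in L-cDC1, 25.1 ± 1.83 FPKM in M-cDC1, 168 ± 2.95 FPKM in L-cDC2 and 202 ± 41.2 FPKM in M-cDC2 (SD, n = 3). The NF-kB subunit gene Nfkb1 gave log2 differences of -2.65 in M and -2.41 in L, and Rel gave -1.74 and -1.67. The adaptor genes Traf1 (-1.33 and -1.18) and Tank (-1.67 and -1.37), and Birc2 (-1.25 and -1.12), which encodes a ubiquitin ligase bound to TRAF2, were lower as well. Ripk3, the kinase of necroptosis, was higher in cDC1 (0.99 and 1.14), and is named after its values were seen. Between L and M no gene of the list was called (limma and limma-voom), with 8 of 43 in cDC1 and 2 in cDC2 at an unadjusted limma p under 0.05. Of all 12434 genes, 1278 in cDC1 and 1267 in cDC2 had such a p.

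**Figure D5:**
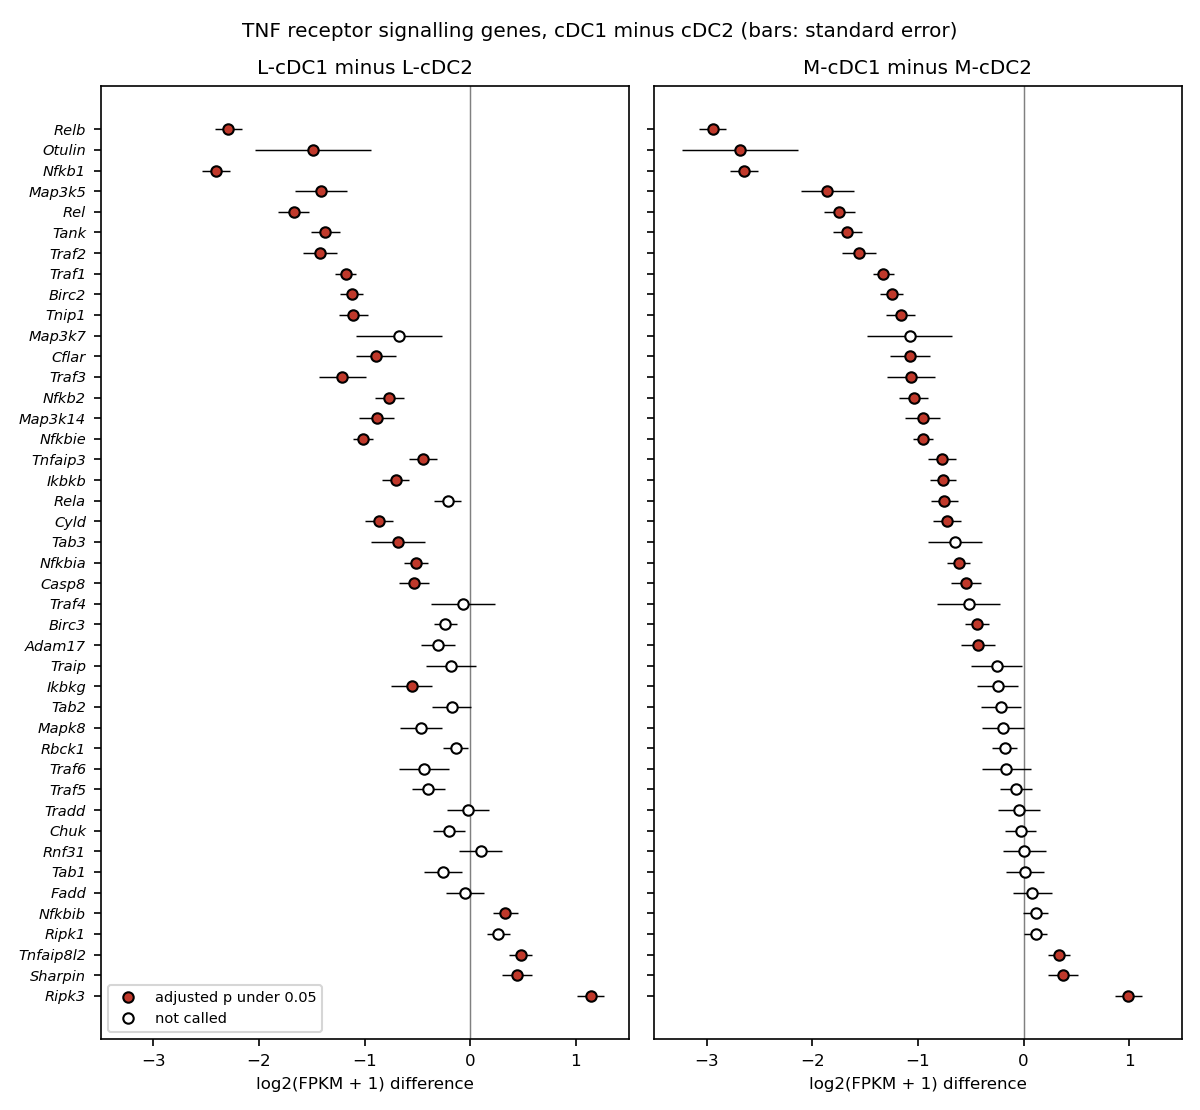
Points are log2(FPKM + 1) differences of cDC1 minus cDC2 for 43 genes of TNF receptor signalling in L (left) and M (right), bars are standard errors, and filled points are called at an adjusted p under 0.05. Most filled points lie left of 0, with Relb at -2.29 in L and -2.94 in M, and Ripk3 lies right of 0 in both.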

How the data were processed

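RNA from 12 samples of cDCs was extracted with a column kit and made into libraries with SMART-Seq HT and Nextera XT kits, which do not mark strand, per the labels' protocols. The authors deposited 1 table of FPKM values. Tools listed by the submitters' processing notes, with no role given, are STAR 2.7.9a for one, featureCounts 2.0.1, DESeq2 1.20.0, and the trimming tools cutadapt 3.7, Trim Galore 0.6.7 and Trimmomatic 0.39. The notes list the human build GRCh38, although the symbols are murine. All 31 members were found in GENCODE M21 (GRCm38), with 0 starts within 100 bp, so gene coordinates are as deposited and their build is not given in the sources used here.

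Multiplied by gene length, 100% of FPKM values came out as whole reads to within 0.01 read. The 12434 genes that reached 1 FPKM in 3 or more of the 12 libraries were fitted as log2(FPKM + 1), without rescaling, with 1 mean per group in limma 3.58.1 (R 4.3.3, intensity trend, 8 residual degrees of freedom). P-values were adjusted over all tested genes in each of 5 contrasts, and called under 0.05. The log2(FPKM + 1) scale understates changes of low genes. Exact two-sided permutation of 3 against 3 libraries has a smallest p of 0.1. The 22 alternatives changed the pseudocount, filter, scaling, test, samples in the fit or replicate block, or left out 1 library. Members called in any contrast are given by library. All called genes of the related list are given. Of the signalling list, the 6 genes with the smallest limma p in M-cDC1 minus M-cDC2 are given for both subset comparisons, with Ripk3 added. Members and lists were chosen with earlier results of these data known.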

Additional observations from a re-analysis of the deposited data

How the results depend on the processing

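The direction of all 32 member differences followed (unadjusted limma p under 0.1) was the same in all 693 alternative values. Of these values, 651 kept their side of the threshold, 13 lost a call and 29 gained one. The 32 were chosen by p in these same libraries, so an unchanged direction was likely beforehand. Some differences not followed did turn, as Tnfrsf9 in L-cDC1 minus L-cDC2 did in 6 of 21 alternatives. Of 15 calls, 12 were made in every alternative that could be fitted. Among 27 differences of related and signalling genes, which were chosen for this after seeing the data, 34 of 591 alternative values lost a call, 2 gained one and 0 turned in direction. Lta in L was lost in 13 alternatives and Tnf in M in 8. The cause of these changes was not tested.

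Members called between L-cDC1 and M-cDC1 numbered 1 (Tnfrsf13c) with a pseudocount of 0.1 or 0.5, with the filter at 5 FPKM, and without M-cDC1 replicate 3, against 0. Signalling genes called between L-cDC2 and M-cDC2 numbered 1 under quantile normalization, against 0. All genes called in L-cDC1 minus M-cDC1 (49) numbered 80 with a pseudocount of 0.1, 14 with no filter, 17 with only the groups compared and 82 with the 5 FPKM filter. In L-cDC2 minus M-cDC2 (227) they numbered 137 with only the groups compared and 142 with the 5 FPKM filter. In the interaction (37) they numbered 21 with a pseudocount of 0.1 and 10 with limma-voom.

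With each library left out in turn, members called ranged from 0 to 1 in L-cDC1 minus M-cDC1, 1 to 1 in L-cDC2 minus M-cDC2, 7 to 10 in M-cDC1 minus M-cDC2, 5 to 9 in L-cDC1 minus L-cDC2 and 0 to 0 in the interaction. All genes called ranged from 24 to 102, 146 to 232, 3854 to 4852, 4186 to 4893 and 10 to 38 in the same order, against 49, 227, 4736, 4913 and 37. Signalling genes called ranged from 0 to 0, 0 to 0, 23 to 27, 20 to 27 and 0 to 0. In L-cDC1 minus M-cDC1, all genes called numbered 24, 26, 83 and 102 without M-cDC1 replicate 2, M-cDC1 replicate 3, L-cDC1 replicate 1 and M-cDC1 replicate 1. In L-cDC2 minus M-cDC2 they numbered 146 without M-cDC2 replicate 2. In the interaction they numbered 14, 21, 10, 24 and 24 without M-cDC1 replicate 2 or 3, M-cDC2 replicate 2, or L-cDC1 replicate 2 or 3.

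Whether same-numbered libraries share an animal is not in the labels. Correlations of same-numbered deviations ran from -0.0101 to 0.156, and no pair of groups had all 3 above 0.1. Such values cannot settle it, since differently numbered libraries were not compared. With the replicate block, members called were 0, 1, 7, 7 and 0 in the order above, and all genes 45, 233, 4754, 4952 and 25. The interaction has no value with only the groups compared, and Tnfrsf9, Tnfrsf11a, Tnfrsf12a, Tnfrsf22 and Tnfrsf23 drop out at 5 FPKM. Depth limits the genes near 1 FPKM, since 3 reads on 1 kb are worth 0.122 to 0.189 FPKM.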

Other observations

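Several members lie next to each other, as the deposited table places them, with unlike levels. Tnfrsf1b and Tnfrsf8 on chromosome 4 are 20266 bases apart with 0 protein-coding genes between them. Tnfrsf1b was 51.0 to 67.8 FPKM in the 6 cDC2 libraries, where Tnfrsf8 was 0 to 0.557 FPKM. Tnfsf8 and Tnfsf15, 86194 bases apart on the same chromosome, were 3.53 to 8.47 FPKM and 0.00787 to 1.09 FPKM in cDC2 libraries. Tnfrsf4 and Tnfrsf18, 9551 bases apart, were both measurable in every library, Tnfrsf4 at 4.28 to 10.03 FPKM and Tnfrsf18 at 11.9 to 24.6 FPKM. On chromosome 1, Tnfsf4 and Tnfsf18, which encode the ligands of these same receptors, are 76242 bases apart and were at most 0.310 FPKM and 0.2498 FPKM. Tnfrsf25 was 0 to 0.0232 FPKM in L-cDC1 and 0.319 to 0.528 FPKM in M-cDC1, below the filter for testing. In cDC2 the order of its means was the opposite, at 0.493 FPKM in L-cDC2 and 0.156 FPKM in M-cDC2. The cDC2 libraries overlapped, at 0.161 to 0.811 FPKM in L-cDC2 and 0.0277 to 0.305 FPKM in M-cDC2. Over 3 libraries Tnfrsf25 had 1 read in L-cDC1, 56 in M-cDC1, 73 in L-cDC2 and 24 in M-cDC2.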
